A study of Mus musculus with 18 samples.

Results

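Naive CD8 T cells of Dock2-deficient mice were compared with those of wild-type mice by RNA sequencing. The comparison took the 5 libraries titled as Dock2-deficient naive cells and the 4 titled as wild-type naive cells, 9 of the 18 libraries of the series, and covered 9437 of 46983 genes, those that reached a value of 10 in 4 or more of the 18 libraries. The wild-type group is given as strain C57BL/6J and genotype wild-type. The other group carries Dock2-Hsd/Hsd, given as Dock2-/-, an allele carried by the whole animal, and neither group was treated. Its strain field also reads C57BL/6J, but its library names read C57L6NHsd, so that genotype and any difference of substrain cannot be told apart. Naive cells are named CD44lo, for low amounts of the adhesion receptor CD44 at the surface. The sources used here give no ages and do not say that libraries of a group came from separate animals. The p-values therefore measure the spread between libraries, which may be technical.

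DOCK2 is a blood-cell protein that loads the small GTPase Rac with GTP, and so links chemokine and antigen receptors to the assembly of actin. T cells that lack it are known to migrate poorly towards chemokines and to form weaker contacts with antigen-presenting cells. The Hsd allele is known as a Dock2 mutation that arose in a commercial C57BL/6N colony. A naive CD8 T cell recirculates through lymph nodes and keeps effector genes silent, while a memory-phenotype cell holds the transcription factors T-bet and Eomes, inflammatory chemokine receptors and stored chemokine transcripts, and in unimmunized mice can arise in response to IL-4 or IL-15.

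The deposited unit is an RSEM expected count, an estimate of the reads of a gene, that the authors scaled between libraries, and it is called the value here. Differences are given on log2(value + 1), which understates changes of genes with low values. The naive libraries held 2336817 to 8257768 expected reads, of which 52.1% to 65.7% fell on the ribosomal RNA gene Rn18s-rs5. Dock2-deficient libraries were on average deeper, a difference that did not pass (exact two-sided permutation test, 4 against 5 libraries, p = 0.222, adjusted p = 0.37 over 5 library measures). Lineage genes were those of CD8 T cells. Cd8a averaged 931 ± 73.9 (SD, n = 4) in the wild-type group and 1136 ± 327 (SD, n = 5) in the Dock2-deficient group, and the lymph node homing gene Ccr7 averaged 1056 ± 142 and 1274 ± 198. Cd44 was at 3.39 to 9.78 in the wild-type and 0 to 21.7 in the Dock2-deficient group, against a mean of 193 in wild-type memory cells. Sex was uneven. Xist, the RNA of the inactive X chromosome, was at 1820 or more in all wild-type libraries and at 2217 in Dock2-deficient library 1, but at 5.44 or less in Dock2-deficient libraries 2 to 5, which carried the Y-linked genes. The memory libraries had the same imbalance, with Xist high in wild-type libraries and in Dock2-deficient library 1 alone.

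Dock2 itself had values of 514, 422, 329.6 and 288 in the wild-type libraries and of 295.9, 202, 373, 174 and 171 in the Dock2-deficient libraries. The ranges overlapped, and the log2 difference of -0.71 ± 0.36 (SE) did not pass (limma, adjusted p = 0.841). A value summed over the gene does not show which allele the transcript carries. Within 5 Mb of Dock2 on chromosome 11, 22 other genes were tested, with a median log2 difference of -0.06. Of these 0 passed, beside 0.138% of all genes tested, and 0 had an unadjusted p under 0.05, beside 6.1%. The members farthest from 0 were Mtif2 (-0.66), Cfap36 (-0.66), Cpeb4 (-0.64) and Rpsa-ps4 (0.62).

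Naive cells of the Dock2-deficient group differed from wild-type cells in 13 genes, 0.138% of those tested. Higher were 12 genes (0.127%) and lower was 1 (0.0106%). They included genes of memory and effector T cells (Tbx21, Cxcr3, Ccl5, Lgals1), genes known from gamma delta T cells (Trdc, Cd163l1, 5830411N06Rik), the interferon response gene Igtp, the surface antigen gene Ly6a, the sulfotransferase gene Chst11, the Fc receptor gene Fcgrt and, as the lower gene, Pydc3. In all 13 the libraries of the genotypes did not overlap, as was so for 256 genes tested (2.71%), and 12 of the 13 differed at least 2-fold. At an unadjusted p under 0.05 stood 576 genes (6.1%), with 3.14% of all genes higher and 2.97% lower. Reads are pooled over all cells of a library, so more cells that hold a transcript and more of it per cell cannot be told apart.

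In build mm10, GENCODE M21 places the memory genes Tbx21 at chr11:97098071-97115331, Cxcr3 at chrX:101731535-101734269, Ccl5 at chr11:83525778-83530518 and Lgals1 at chr15:78926725-78930465. The genes known from gamma delta T cells are Trdc at chr14:54142851-54148868, Cd163l1 at chr7:140218267-140231145 and 5830411N06Rik at chr7:140247284-140300736. The others described here are Igtp at chr11:58199556-58207591, Ly6a at chr15:74994877-74998031, Chst11 at chr10:82985498-83195900, Fcgrt at chr7:45092990-45103851 and Pydc3 at chr1:173673675-173698395. Values are sums over each gene's transcripts.

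The calls rested on different amounts of data. Cd163l1, 5830411N06Rik and Chst11 passed the filter on low values through the memory libraries and would not have been tested with the filter on naive libraries alone. With voom weights, which give low and shallow values less say, 3 of the 13 were called (Pydc3, Fcgrt and Lgals1) and the other 10 were not, though all kept their direction. With only the naive libraries in the fit, Pydc3, Fcgrt, Lgals1, Cd163l1, Trdc and Ly6a were called. With Xist as a covariate, Cd163l1, Pydc3, Tbx21 and Trdc were called, and the other 9 were not.

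**Figure D1:**
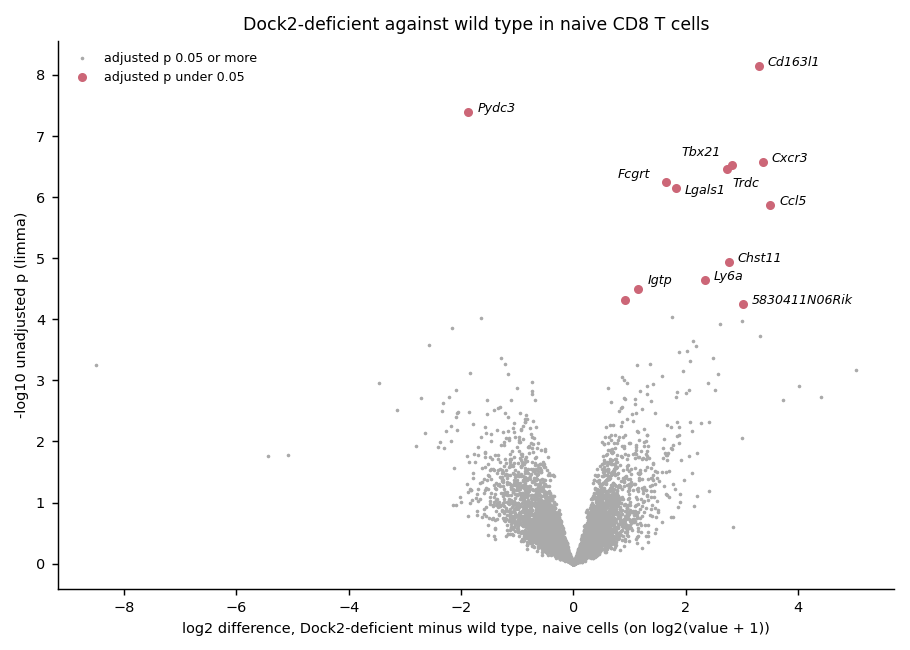
Each point is 1 of the 9437 genes, with the log2 difference between Dock2-deficient and wild-type naive cells on the horizontal axis and -log10 of limma's unadjusted p on the vertical axis. The 13 large points passed at an adjusted p under 0.05, 12 to the right of 0 and Pydc3 to the left, and 12 of them are named; the point near -8.50 is Xist.

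Of the called memory genes, Tbx21, Cxcr3 and Ccl5 had means under 10 in wild-type naive cells. Tbx21 encodes T-bet, the transcription factor of effector and memory CD8 T cells. Its values were 18.2, 5.42, 2.79 and 3.39 in the wild-type libraries and 42.7, 81.5, 28.7, 42.5 and 50.8 in Dock2-deficient libraries. Every Dock2-deficient library stood above the highest wild-type library. This was a log2 difference of 2.82 ± 0.38 (SE; limma, adjusted p = 6.5e-04), and the Dock2-deficient mean was 9.68% of that in wild-type memory cells.

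Cxcr3 encodes the receptor that draws T cells to interferon-induced chemokines. It had values of 3.3, 3.62, 8.38 and 1.13 in the wild-type libraries and of 13.6, 76.8, 65.0, 92.2 and 28.9 in Dock2-deficient libraries. Library 1, the library with Xist, was the lowest of the Dock2-deficient group but still above the wild-type range. On the log2 scale Cxcr3 rose by 3.37 ± 0.45 (adjusted p = 6.5e-04), and the mean reached 19.5% of the wild-type memory mean.

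Ccl5, a chemokine whose transcript memory CD8 T cells store, had values of 4.96, 5.42, 2.79 and 0 in the wild-type libraries and of 26.4, 102.6, 18.9, 56.1 and 27.9 in Dock2-deficient libraries. Library 2 was the highest here and in Tbx21, and also held the haemoglobin gene Hbb-bs at 105.6, against 0 to 17.0 in the other naive libraries. Without library 2 the Ccl5, Tbx21 and Cxcr3 calls remained, among 10 calls that were all among the 13. The log2 difference of Ccl5 was 3.5 ± 0.52 (adjusted p = 0.0016), and its mean was 2.68% of the wild-type memory mean.

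Lgals1, which encodes the lectin galectin-1, had values of 36.9, 23.5, 47.5 and 26.0 in the wild-type libraries and of 96.4, 127, 126, 119 and 116 in Dock2-deficient libraries. The groups stood well apart, with little spread within the Dock2-deficient group. Lgals1 rose by 1.82 ± 0.26 on the log2 scale (adjusted p = 9.7e-04), and the mean equalled 100.4% of the wild-type memory mean. Chst11, a chondroitin sulfotransferase gene, was listed at 1.1, 0, 0 and 0 in wild-type libraries and at 6.36, 9.51, 9.22, 5.61 and 5.97 in Dock2-deficient libraries. These are low values in every naive library, and the Dock2-deficient mean was 24.7% of the wild-type memory mean of 29.7. The log2 difference of 2.76 ± 0.48 (adjusted p = 0.0122) was no longer called without wild-type library 2 (adjusted p = 0.0515), and became 1.22 (adjusted p = 0.341) with a pseudocount of 5. An antisense gene, 1700025N21Rik, overlaps Chst11, and unstranded reads of the 2 genes cannot be told apart.

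**Figure D2:**
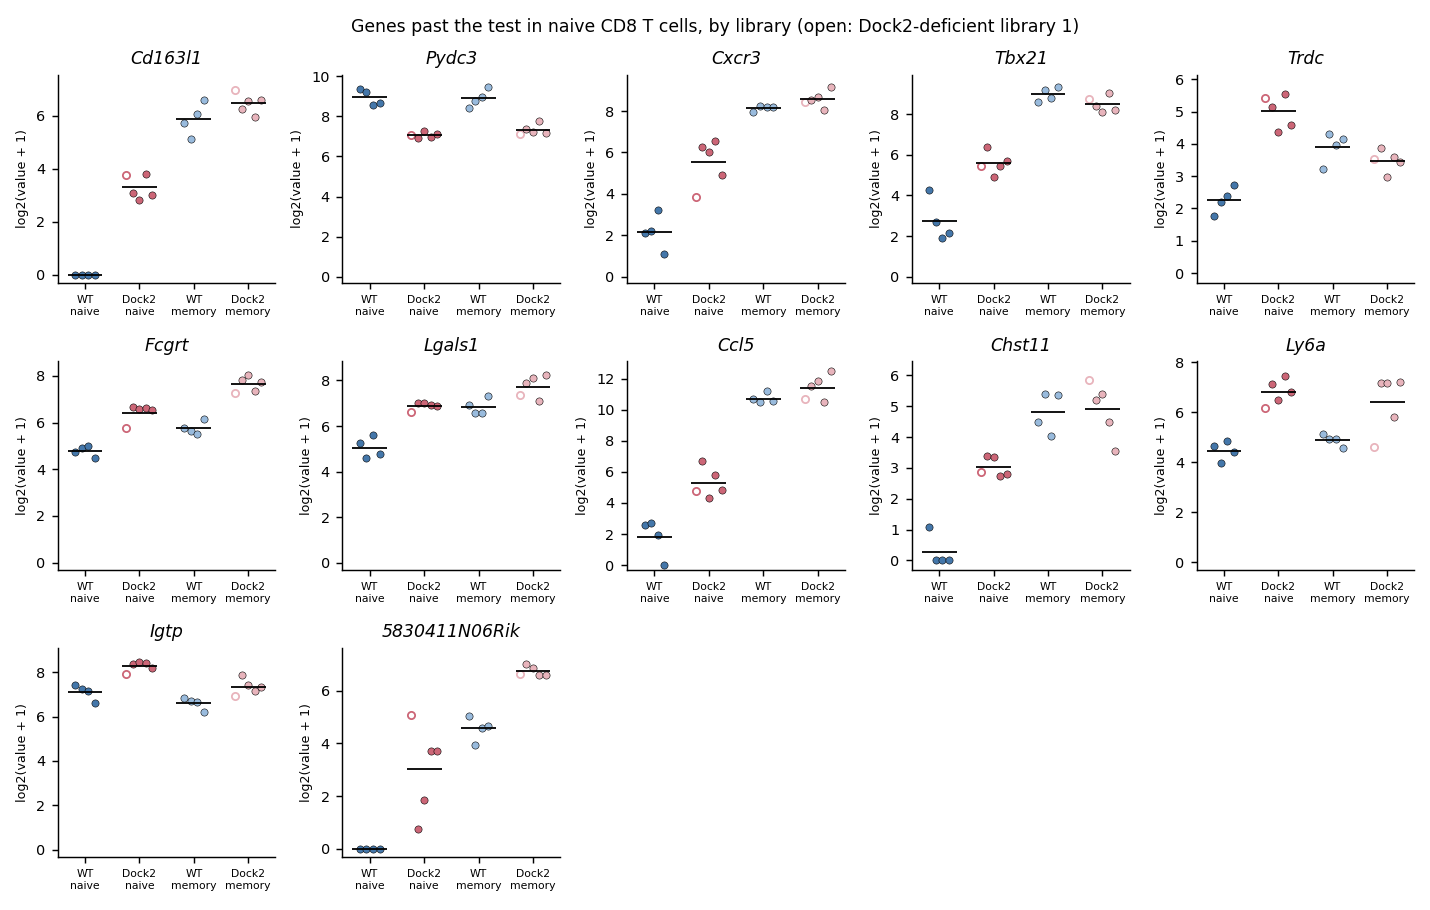
Each panel shows 1 of 12 called genes, with log2(value + 1) on the vertical axis, 1 point for each of the 18 libraries in their 4 groups, and a line at the group mean. Open points are Dock2-deficient library 1 of each cell state; in every panel the naive groups stand apart, and only Trdc, Fcgrt, Lgals1, Ly6a and Igtp have a Dock2-deficient naive mean at or above the wild-type memory mean.

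Most other memory genes were not called. Of 33 tested genes of the memory and effector-memory list, 4 were called higher (Tbx21, Cxcr3, Ccl5 and Lgals1) and 0 lower. Over all genes tested these shares were 0.127% and 0.0106%. The median log2 difference was 0.43, beside 0.00 over all genes tested. The next members were S100a6 (2.13, adjusted p = 0.107) and Anxa2 (1.76, adjusted p = 0.0592), which encode a calcium-binding protein and an annexin of activated T cells. Anxa2 had values of 4.52 to 11.2 in wild-type and 12.9 to 45.5 in Dock2-deficient libraries. Genes of 3 lists (memory, cytotoxic molecules and NK receptors) were also picked by their wild-type means. The 22 picked had a memory mean of at least 50, which was at least 4 times the naive mean. The Dock2-deficient naive mean was above the wild-type naive mean in 16, and under 10% of the wild-type memory mean in 12. Picking genes by a low wild-type naive mean tilts both counts, so neither measures an effect of genotype. Il2rb, the receptor chain shared by IL-2 and IL-15, averaged 309.9 ± 71.7 (SD, n = 4) and 456 ± 171 (SD, n = 5) in the naive groups and did not pass (0.5 ± 0.26, adjusted p = 0.855). Eomes, the T-box factor induced by IL-4, was at 5.59 to 15.4 in wild-type and 4.55 to 60.5 in Dock2-deficient libraries, and these ranges overlapped. Cd44, the sorting marker, was at 3.64, 21.7, 0, 1.6 and 2.99 in the Dock2-deficient libraries, with library 2 far above the other 4, and its log2 difference was -0.84 (adjusted p = 0.929). Gzmm, a granzyme gene, stood at 0.642% and 1.62% of the wild-type memory mean. The NK receptor genes Klra6 and Klra7 were at 0 in all Dock2-deficient naive libraries.

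**Figure D3:**
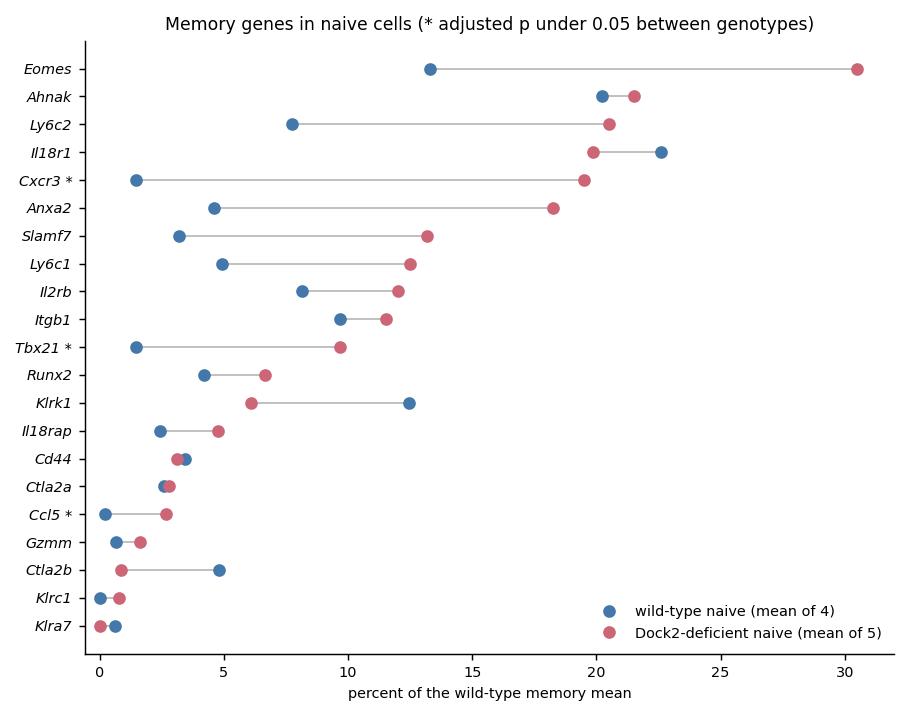
Means of naive libraries are given as a percentage of the wild-type memory mean. Shown are 21 of the 22 memory genes described in the text (Klra6, at 0 in both groups, is left out). They were picked partly by a low wild-type naive mean. Blue points are wild-type naive cells, red points Dock2-deficient naive cells, and an asterisk marks an adjusted p under 0.05 between them; Cxcr3 and Tbx21 moved from 1.45% and 1.46% to 19.5% and 9.68%, while Ctla2a and Gzmm lie near the wild-type naive points and the Cd44 mean rests on library 2.

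Other lists of CD8 T cell states held fewer calls. Over all genes tested, 0.138% were called. The list of virtual-memory genes and of genes that answer IL-4 or IL-15 had 22 tested members, 0 called in either direction. The log2 difference was positive in 19, with a median of 0.41. Over all genes tested the median was 0.00, with about as many positive as negative. The list's members with groups that did not overlap were Ly6c2 (1.31), Cd5 (0.62) and Cd6 (0.38), 3 of 22, beside 2.71% of all genes tested. Cd5, a brake on antigen receptor signalling whose level follows the strength of self-recognition, had values of 134 to 191 in wild-type and 214 to 258 in Dock2-deficient libraries (adjusted p = 0.257). Ly6c2, a surface antigen of memory CD8 T cells, averaged 272 ± 40.1 and 718.5 ± 269 (adjusted p = 0.255). It was called under quantile normalization (adjusted p = 0.0036), but its log2 difference was 0.38 with Xist as a covariate and 0.31 among the libraries with Xist above 1000. Of the virtual-memory list, Socs3, a feedback inhibitor of cytokine receptors, averaged 33.5 and 78.0 (adjusted p = 0.266). Cytotoxic and effector molecules had 18 tested members with 1 call (Ccl5), while Serpinb6b, a serpin, averaged 31.6 ± 11.8 and 10.01 ± 5.42 (-1.65, adjusted p = 0.0592) and Ctla2b 6.24 and 1.1 (-1.83, adjusted p = 0.209). NK receptors had 15 tested members and 0 calls, with Slamf7 at 1.84 and Klrd1, which encodes CD94, at -0.94. Chemokine and homing receptors had 21 tested members with 1 call (Cxcr3). Cxcr5, the follicle homing receptor, averaged 6.56 and 31.2 (adjusted p = 0.136) and was highest, at 78.8, in library 2. Cxcr6 went the other way without a call, at 161 ± 45.3 and 75.8 ± 42.3 (adjusted p = 0.372).

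Genes of the naive program held no call, but with 0.138% of all genes tested called, 0 in a list of this size says little. Of 28 naive and quiescence genes 0 were called, with a median of -0.07 and 7 above 0. Il7r, the receptor of the survival cytokine IL-7, averaged 392 ± 70.9 (SD, n = 4) and 245 ± 57.3 (SD, n = 5), a log2 difference of -0.69 ± 0.19 that did not pass (adjusted p = 0.294). Lef1, Dapl1 and Igfbp4 had log2 differences of -0.04, -0.06 and -0.15, and Tcf7 of 0.3.

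A second group of higher genes is known from gamma delta T cells, which carry a receptor of gamma and delta chains in place of alpha and beta. Trdc encodes the constant region of the delta chain. Its values were 2.43, 3.63, 4.19 and 5.65 in the wild-type libraries and 42.0, 34.0, 19.5, 45.7 and 22.9 in Dock2-deficient libraries. All Dock2-deficient libraries, also library 1, were above the wild-type range, and also above the 8.32 to 18.9 of wild-type memory libraries. Trdc rose by 2.73 ± 0.37 on the log2 scale (adjusted p = 6.5e-04). Genes on the opposite strand (Trdv5 and Gm43434) overlap it in the annotation, and unstranded reads do not separate them.

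Cd163l1 and 5830411N06Rik are neighbouring scavenger receptor genes on chromosome 7, 16138 bases apart, both known from gamma delta T cells. They resemble each other, so the division of reads between them is an estimate. Cd163l1 was at 0 in each wild-type library, and at 12.7, 7.47, 6.14, 12.8 and 6.97 in the Dock2-deficient libraries (adjusted p = 6.6e-05); no fold is given against a group listed at 0. 5830411N06Rik was likewise at 0 in each wild-type library, and at 32.7, 0.679, 2.56, 12.03 and 11.95 in the Dock2-deficient libraries. The second gene spread widely, and its call (adjusted p = 0.0407) was kept in 2 of the 9 fits that left out a naive library, and was lost with a pseudocount of 5 (1.44, adjusted p = 0.276). In wild-type memory cells the means of Cd163l1 and 5830411N06Rik were 61.9 and 23.6, so both were also higher in memory than in naive cells. The Dock2-deficient naive means were 14.9% and 50.8% of these. In Dock2-deficient memory cells the means of both genes were 89.5 and 106.9, without a call between genotypes (limma, adjusted p = 0.391 and 0.228).

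Of 13 gamma delta genes measured, 5 passed the filter and 3 of these were called, beside 0.138% of all genes tested. The median of the 5, 2.73, is the value of Trdc. The filter needs values of 10 in 4 libraries, so it favours genes that are high in some group and can raise the share called. The receptor gamma constant genes Tcrg-C4 (1.2 and 10.03, adjusted p = 0.209) and Tcrg-C2 (2.41 and 12.1, adjusted p = 0.199) had positive differences and were not called. Summed over the list, values were 5.18 to 11.3 in the wild-type and 49.2 to 127 in the Dock2-deficient naive group, and 113 to 202 in wild-type memory libraries. The 3 called genes are part of these sums, which therefore restate the calls. Of the transcription factor and kinase genes of gamma delta T cells, Sox13 was at 0 in 7 and Blk at 0 in 8 of the 9 naive libraries, with maxima of 2.2 and 0.909. Whether gamma delta T cells were present in the sorted samples was not tested. For comparison, Cd3e averaged 2298 and 2793, and the alpha chain constant gene Trac 683 and 669.

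The next group belongs to the interferon response, in which activated transcription factors bind to promoters and switch on GTPases of cell-autonomous immunity. Igtp, an immunity-related GTPase gene, had values of 170.1, 151, 141 and 97.2 in the wild-type libraries and of 237, 326, 354, 343 and 288 in Dock2-deficient libraries. Library 1 was the lowest of its group, still above the wild-type range. Igtp rose by 1.16 ± 0.22 on the log2 scale (adjusted p = 0.0279). It overlaps Irgm2, a related gene on the same strand, so reads may be shared.

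Ly6a, which encodes the interferon-inducible surface protein Sca-1, had values of 23.7, 14.5, 27.9 and 20.3 in the wild-type libraries and of 71.4, 139.9, 87.9, 171 and 111 in Dock2-deficient libraries. The lowest Dock2-deficient library was more than 2-fold above the highest wild-type library. It was not on the interferon list. Its log2 difference was 2.34 ± 0.43 (adjusted p = 0.0214). Igtp and Ly6a were called in 2 and 4 of the 9 fits that left out a naive library. Their adjusted p rose up to 0.128 and 0.119, without wild-type library 4 and 2. The Igtp call was also lost when libraries were scaled by their totals without Rn18s-rs5 and mitochondrial genes (adjusted p = 0.0773). With Xist as a covariate the log2 differences were 0.8 for Igtp and 1.2 for Ly6a, and neither gene was called. In naive cells of Dock2-deficient mice, Igtp and Ly6a stood at 319.9% and 402% of the wild-type memory mean, and in wild-type naive cells at 144% and 74.6%.

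The interferon list had 47 tested members, 2 called higher, Igtp among them, and 0 lower, beside 0.127% and 0.0106% of all genes. Its median was 0.18, with 31 of the 47 positive, and the groups did not overlap for 7 higher and 2 lower members. Over all genes tested, 1.46% and 1.25% did not overlap in these directions. Unadjusted p-values were under 0.05 for 9 members in the higher and 2 in the lower direction, beside 3.14% and 2.97% of all genes tested. The higher ones included GTPase genes of the interferon gamma response, namely Iigp1 (6.76 ± 4.96 and 35.2 ± 16.6), Gbp2 (72.0 ± 10.4 and 153 ± 32.6) and Irgm1 (117 ± 17.1 and 177 ± 38.3), which did not pass over all genes (adjusted p = 0.44, 0.44 and 0.469). The 2 lower ones, Oas2 (-2.18) and Oasl2 (-1.58), encode proteins of the antiviral oligoadenylate synthetase family, and did not pass either. Ifit1 (-0.96), Ifit3 (-0.47) and Irf7 (-0.44), induced mainly by type I interferon, also had negative differences without a call. Ifit1bl1, of the same list, went the other way, at 60.2 ± 4.25 and 116 ± 31.5 (0.9, limma adjusted p = 0.294). Transcripts of Ifng averaged 0.632 and 1.42, and those of its receptor chain Ifngr1 averaged 152 and 175.

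Promoter sequence is shown for genes of this group because interferon-activated factors read short motifs there. RefSeq windows (build GRCm38.p6) were in the table for 7 of the 13 called genes, and the 250 bases before the start were searched on both strands. The interferon-stimulated response element was searched as 2 GAAA repeats separated by any 2 bases, and the gamma-activated site as TTCNNNGAA. In capitals are the matches, in the 120 bases before the start of Igtp at chr11:58199436-58199555 (plus strand), and in 30 bases around the match for Gbp2 at chr3:142620594-142620623 (plus), Irgm1 at chr11:48871428-48871457 (minus) and Ifit1bl1 at chr19:34602053-34602082 (minus), each written 5′ to 3′ on the strand of the gene.
Igtp: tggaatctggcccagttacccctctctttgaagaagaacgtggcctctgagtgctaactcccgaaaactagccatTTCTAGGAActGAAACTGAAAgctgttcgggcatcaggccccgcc
Gbp2: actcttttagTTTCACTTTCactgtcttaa
Irgm1: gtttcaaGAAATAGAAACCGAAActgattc
Ifit1bl1: actctgtaggTTTCATTTTCtgtaggttgg
In Igtp the gamma-activated site begins 45 bases and the response element 34 bases before the start. The response element lies on the opposite strand in Gbp2 and Ifit1bl1, and 2 overlapping matches make up the run in Irgm1. It was found in 2.98% of all 32851 promoter windows and the gamma-activated site in 7.02%. Among tested interferon list genes in the table, 19 of 33 held the response element, whereas of the called genes in the table it was Igtp alone. The T-box motif GGTGTGA, read by T-bet, was in 3.33% of all windows and in 0 of the windows of the called genes in the table, Cxcr3 and Tbx21 included. A match describes the letters only.

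Of the called genes, Fcgrt and Pydc3 were also called in memory cells, in the same direction. The others, apart from Tbx21 and Trdc, kept their direction in memory cells but were not called there. Fcgrt encodes the neonatal Fc receptor, which recycles antibody and albumin. Its values were 25.3, 28.9, 30.7 and 21.5 in the wild-type libraries and 53.6, 100.5, 93.7, 97.1 and 90.6 in Dock2-deficient libraries. Library 1 stood apart from the other 4 but above the wild-type range, and the log2 difference was 1.65 ± 0.23 (adjusted p = 8.7e-04). With Xist as a covariate it was 1.18 (adjusted p = 0.27). The memory libraries had the same imbalance of sex and may be of the same animals. In them Fcgrt averaged 54.1 ± 10.6 (SD, n = 4) and 202 ± 44.2 (SD, n = 5), a log2 difference of 1.87 ± 0.23 (limma, adjusted p = 3.8e-04).

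Pydc3 is a gene of the interferon-inducible family of DNA sensors and their regulators, clustered on chromosome 1. It had values of 649, 586, 376 and 406 in the wild-type libraries and of 134, 119, 152, 125 and 139.9 in Dock2-deficient libraries. The Dock2-deficient values varied little, library 1 included, and all lay more than 2-fold below the lowest wild-type value. Pydc3 had a log2 difference of -1.87 ± 0.22 (adjusted p = 1.9e-04) in naive cells and -1.57 ± 0.22 (adjusted p = 0.0018) in memory cells. Of 7 other genes tested within 0.5 Mb of Pydc3, chosen after its value was seen, 0 were called, beside 0.138% of all genes tested. Pydc4 averaged 573 and 299.7 (-0.93, adjusted p = 0.645) and Gm4955 408 and 241 (-0.72, adjusted p = 0.577), while Pyhin1, Mndal, Ifi203, BC094916 and Aim2 lay between -0.12 and 0.18. Family members are alike in sequence, so the division of reads among Pydc3, Pydc4 and Gm4955 is an estimate of RSEM.

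The genotype difference itself was compared between naive and memory cells. In memory cells 5 genes were called (0.053%), and the interaction called 3 genes (0.0318%), Tbx21, Trdc and Tmie. With the replicate number as a block it called 0. For Tbx21 the genotype difference was 2.82 in naive and -0.47 in memory cells, an interaction of 3.29 ± 0.54 (adjusted p = 0.0287). For Trdc it was 2.73 and -0.43, an interaction of 3.16 ± 0.52 (adjusted p = 0.0287). When each of the 18 libraries was left out in turn, Tbx21 was called in 5 fits (largest adjusted p 0.0938) and Trdc in 2 (largest 0.107). Cd163l1 came close at 2.71 ± 0.49 (adjusted p = 0.0507), and for Cxcr3 and Ccl5 the interaction was not called (adjusted p = 0.221 and 0.626). Tmie, a gene of the hair-cell transduction channel, averaged 45.0 ± 6.52 and 47.8 ± 7.7 in naive cells, and 0.637 ± 0.736 and 10.6 ± 3.46 in memory cells.

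Genes of the DOCK2 pathway showed no call. Of all genes tested 0.138% were called, so 0 calls in lists of these sizes say little. Of 18 tested genes of the Dock, Elmo and Rac pathway 0 were called (median 0.01), with Dock2 farthest from 0, followed by Dock9 (0.52), Prex1 (0.3) and Elmo2 (0.21). Of 27 tested genes of actin, the WAVE complex and Arp2/3, 0 were called (median 0.01), the farthest being Dstn (-0.7) and Actg1 (-0.44). Of 33 genes of proximal antigen receptor signalling 0 were called (median 0.01). Rasgrp1, which couples the receptor to Ras, averaged 236 ± 34.0 and 347 ± 60.4 (0.55, adjusted p = 0.729) and Fyn, a Src-family kinase gene, 78.1 ± 5.94 and 56.6 ± 5.31 (-0.46, adjusted p = 0.744). At an unadjusted p under 0.05 these 3 lists held 0, 0 and 5 genes, beside 6.1% of all genes tested. Cell cycle genes (18 tested) and cytosolic ribosomal protein genes (79 tested) also had 0 calls.

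**Figure D4:**
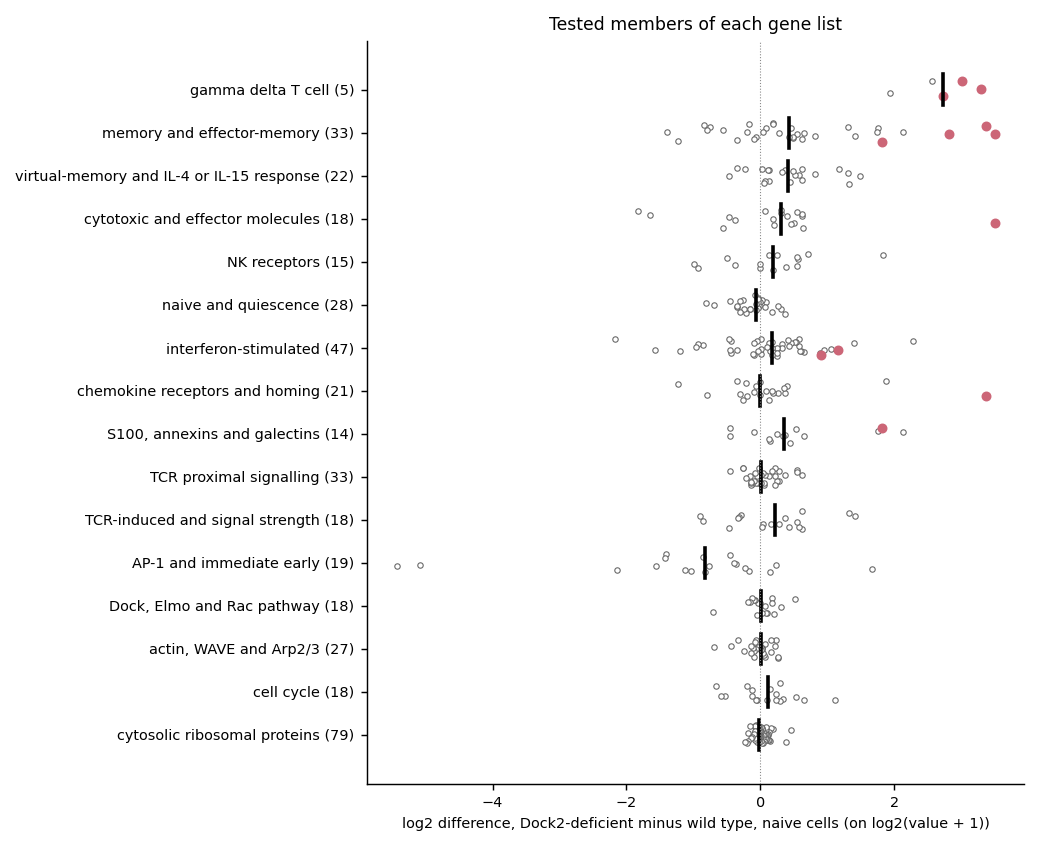
Each point is a tested gene of a list, placed by its log2 difference between Dock2-deficient and wild-type naive cells, with filled points at an adjusted p under 0.05 and a bar at the list's median; numbers in brackets count tested genes. The gamma delta list lies at a median of 2.73 with 5 genes, the AP-1 and immediate early list at -0.82, and the Dock, actin and proximal receptor lists at 0.01.

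Immediate early and heat shock genes, which respond within minutes to receptor signals and to handling, were uneven within the Dock2-deficient group. Of 19 tested, 0 were called, beside 0.138% of all genes tested. Of the 19, 3 had a positive difference, and the median was -0.82. Summed values were 7304 to 7821 in wild-type libraries, and 5366, 4940, 6687, 1402 and 1924 in Dock2-deficient libraries. Libraries 4 and 5 held the low sums. Fos had values of 509 to 972 in wild-type and of 695, 468, 667, 11.2 and 39.8 in Dock2-deficient libraries. Hspa1a, an inducible heat shock gene, had values of 781 to 1476 in wild-type and of 23.7, 477, 868, 0 and 0 in Dock2-deficient libraries, so library 1 was low here too. Their log2 differences of -2.14 (adjusted p = 0.909) and -5.43 (adjusted p = 0.653) did not pass, with large errors of 1.28 and 2.1. Of 18 tested genes induced by the antigen receptor 0 were called, and Nr4a1, which follows receptor signals, averaged 92.4 ± 45.8 and 48.8 ± 22.4 (adjusted p = 0.789).

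**Figure D5:**
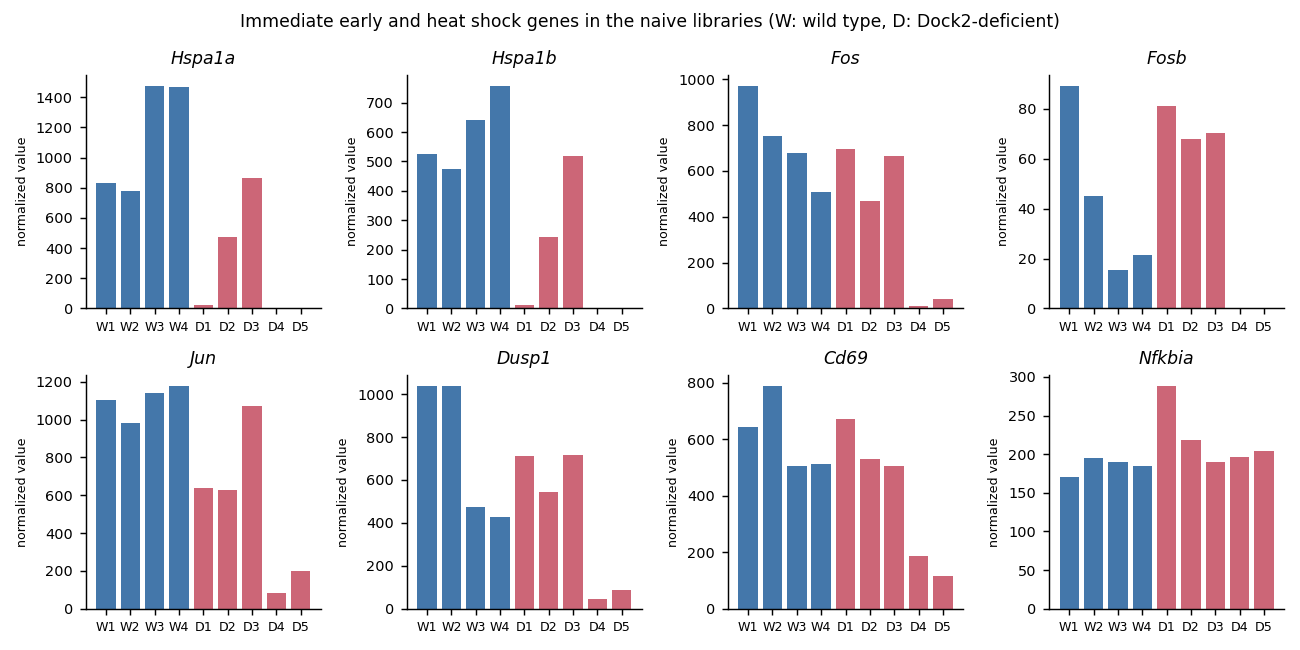
Bars give the normalized value of 8 immediate early and heat shock genes in each of the 4 wild-type (W, blue) and 5 Dock2-deficient (D, red) naive libraries. In D4 and D5 Hspa1a, Hspa1b and Fosb are at 0 and Fos at 11.2 and 39.8, whereas Nfkbia is at 196 and 204 there and at 170.1 to 195 in wild type.

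Beyond the called genes, those with the smallest p among genes whose naive groups did not overlap and that averaged at least 50 in a group were listed in each direction. Higher were Pla2g16, Ly6c2, Cd5, Ifit1bl1, Tmem175, Rela, Ms4a4c, Rnf14, Gbp2 and Irgm1, with log2 differences of 0.58 to 1.31 (adjusted p of 0.241 to 0.469). Rela, the p65 subunit of NF-kappa B, averaged 85.4 ± 9.7 (SD, n = 4) and 136 ± 20.7 (SD, n = 5). Ms4a4c, a membrane protein gene, averaged 60.8 ± 14.8 and 145 ± 40.6. None of these passed the test.

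In the lower direction stood Dusp6, Rfx1, Abcc10, Sepp1, Rsrc2, Krit1, Lax1, Zdhhc21, Slc6a19 and Malat1, at -0.73 to -2.32 (adjusted p of 0.0729 to 0.351). Dusp6 encodes the phosphatase that switches off ERK. Its values were 71.6, 61.5, 40.5 and 30.5 in the wild-type libraries and 28.2, 7.47, 8.7, 12.8 and 3.98 in Dock2-deficient libraries, a difference of -2.16 ± 0.46 that did not pass (adjusted p = 0.0729), though it did without library 1 (adjusted p = 0.0109), the library with Xist. With Xist as a covariate the difference was -0.96, and -0.76 among the libraries with Xist above 1000 (adjusted p = 1 in both). Slc6a19, a neutral amino acid transporter gene, averaged 120.4 ± 32.4 and 24.0 ± 9.62 (adjusted p = 0.313) and was called with only the naive libraries (adjusted p = 0.0153), with a pseudocount of 5 (adjusted p = 0.0329) and with voom weights (adjusted p = 0.0043). Malat1, a nuclear long noncoding RNA, averaged 10931 ± 1158 and 4603 ± 1760 (adjusted p = 0.351), with its lowest values, 2635 and 3047, in libraries 4 and 5.

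Markers of other cells were at or near 0 in part. The NK cell gene Ncr1 was at 0 in all naive libraries. The B cell gene Ms4a1 reached at most 3.33, while Cd79b, also of B cells, was at 33.5 to 53.1 in wild-type and 25.1 to 50.95 in Dock2-deficient libraries (-0.05, adjusted p = 1). Foxp3, of regulatory T cells, was highest at 15.2 in wild-type library 1. Cd4 was at 0 in 6 of the 9 naive libraries and highest, at 7.47, in Dock2-deficient library 2, which also had the highest Cd40lg (17.7) and Lyz2 (10.2). Erythroid and platelet genes summed to 1.1 to 9.78 in wild-type and to 6.97 to 340.4 in Dock2-deficient libraries. The part of these cells in the differences above was not tested, apart from the fit without library 2. Of 5 tested genes known to differ between C57BL/6 substrains 0 were called, beside 0.138% of all genes tested, with a median of -0.61. Ide (-0.78, adjusted p = 0.477) and Entpd4 (-0.87, adjusted p = 0.7) were lower at an unadjusted p under 0.05, as were 2.97% of all genes tested. Nnt, whose function is lost in C57BL/6J, averaged 27.8 ± 7.85 and 19.4 ± 9.9 (adjusted p = 0.982).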

How the data were processed

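Sorted naive and memory-phenotype CD8 T cells of wild-type and Dock2-deficient mice gave 18 libraries. Per the labels' protocols, the RNA kit was Qiagen RNAeasy and the library protocol Smartseq2, which does not mark strand. The submitters' processing notes name bcl2fastq, FastQC, RSEM and mm10, without versions; the aligner and annotation are not given here. The deposited values are a normalized signal, RSEM expected counts that the authors scaled by 1 factor per library. All values lay on a grid of 0.01 reads divided by that factor, which gave the depth. Of values above 0, only 59.5% to 69.3% were whole reads, so no count model was used as the main test. For the voom weights the expected reads were rounded.

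Positions came from GENCODE M21, in which 98.9% of the 46983 identifiers were found. The test used limma 3.58.1 (R 4.3.3) on log2(value + 1): 1 mean for each of the 4 groups over 18 libraries, a variance trend, 14 residual degrees of freedom, two-sided tests and Benjamini-Hochberg adjustment over 9437 genes, with a threshold of 0.05. All groups share 1 estimate of the spread. The members, the 29 gene lists and the tests were chosen with earlier results of these data known. Named genes were Dock2, the called genes (1 of the 13 is counted but not reported here), the 10 genes in each direction with the smallest p whose naive groups did not overlap and that averaged at least 50 in a naive group, and the members of each list with the largest differences. Alternatives were other pseudocounts, filters, scalings, priors, blocks, an Xist covariate, each library left out and, chosen after seeing the data, voom weights on expected reads and the 10 libraries with Xist above 1000. Replicate numbers did not pair the naive libraries of the 2 genotypes: deviations of same-numbered libraries had correlations of 0.06, 0.01, -0.17 and 0.16. Whether a naive and a memory library of 1 number came from 1 animal is not given. No 2 libraries of a naive group agreed within sampling noise (chi-square per degree of freedom of at least 4.95). The fit was tested on simulated data. Other steps used Python 3.11.15 with pandas 2.3.3, numpy 2.4.6, matplotlib 3.10.9 and scipy 1.17.1.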

Additional observations from a re-analysis of the deposited data

Results flagged for a closer look

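In 66 groups of naive values of the named genes, 5 held a library far from the others of its group, where chance gives about 1 in 20. Chst11 was at 1.1 in wild-type library 1 and listed at 0 in the other 3. Beside 3 values of 0 any value above 0 is flagged, so this flag says little. Fcgrt was at 53.6 in Dock2-deficient library 1 and at 90.6 to 100.5 in the other 4. Irgm1 was at 245 in Dock2-deficient library 2, against 157 to 166 in the others. Lax1, an adaptor gene of lymphocyte signalling, was at 54.8 in Dock2-deficient library 5, against 35.3 to 40.9 in the others. Rnf14, a ubiquitin ligase gene, was at 88.6 in Dock2-deficient library 3, against 53.6 to 63.2 in the others.

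By limma's interaction test the genotype difference differed between naive and memory cells for 3 genes, and for 0 with the replicate number as a block. The difference of the differences, naive minus memory, was 3.29 for Tbx21, 3.16 for Trdc and -2.82 for Tmie. For Tmie the adjusted p was 0.0495, and it was called in 1 fit when each of the 18 libraries was left out in turn (largest adjusted p 0.141).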

How the results depend on the processing

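The 13 calls in naive cells became 8 with only the 9 naive libraries in the fit (5 higher, 3 lower; 6 of the 13 among them), 4 with Xist as a covariate and 6 with voom weights (2 higher, 4 lower; 3 of the 13 among them). With the 10 libraries with Xist above 1000 they became 3, with 0 of the 13 among them. There Dock2-deficient naive cells are library 1 alone, assumed to vary like the other groups, and the calls were mt-Nd3, Hspa1b and Hspa1a. The other settings of the pseudocount, filter, scaling and prior, the random block and the fit without X and Y genes gave 10 to 18 calls. Leaving out each naive library gave 9 to 19 calls. The log2 differences of the 34 named genes kept their direction in every alternative that tested them; Cd163l1, Chst11 and 5830411N06Rik were not tested under the filter on naive libraries, nor Cxcr3 without X and Y genes. With a pseudocount of 5, Chst11 and 5830411N06Rik were no longer called.

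A replicate block, with the number of the title as a term, gave 19 calls in naive cells, 11 of the 13 among them, and 0 calls for the interaction in place of 3 (544 genes at an unadjusted p under 0.05). By their correlations the numbers do not pair the libraries: 1 of 4 wild-type naive libraries correlated best with its own number, and between naive and memory libraries of a number the correlations were -0.02 to 0.13 in wild type and -0.25 to 0.3 in the Dock2-deficient group. Within that group, though, number 1 had high Xist in both states, and numbers 4 and 5 the lowest immediate early sums in both (1402 and 1924 in naive, 1181 and 2567 in memory cells). Leaving out each of the 18 libraries gave 0 to 2 interaction calls. Where a fit called 0 genes, no count model was run beside limma.

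Low values limit the comparison: Cd163l1, 5830411N06Rik, Chst11 and Ccl5 have wild-type values at or near 0, so their log2 differences move with the pseudocount (Cd163l1 from 1.48 to 4.22 over all alternatives).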
